A study of Mus musculus with 6 samples.

Results

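The genes described here are 50 genes of DNA replication and mitosis, of 56884 genes in the deposited table. They were taken by symbol from a fixed list, and 30 of them act in DNA replication and 20 in mitosis. RNA sequencing measured their transcripts in mouse neutrophils sorted from bone marrow as CD101+ Ly6G+ cells, a gate for mature neutrophils, and then cultured outside the animal. In 3 libraries the culture held DKK1 (Dickkopf-1, a secreted protein that blocks Wnt receptors) and in 3 libraries, the controls, it did not. The sources used here do not give the strain, age or genotype of the mice, how much DKK1 was added or for how long. They do not say either that the 3 libraries of each group are separate animals or cultures, so each p-value covers only library-to-library spread, possibly technical.

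Before a cell copies its DNA, the proteins CDC6 and CDT1 load the MCM helicase on origins, and CDC45 and the GINS complex then turn it into an active unwinding machine. DNA polymerases alpha, delta and epsilon copy the strands, the sliding clamp PCNA is placed by the RFC complex, and FEN1 and LIG1 finish the lagging strand. Cyclin B with CDK1, the Aurora and Polo kinases, the spindle checkpoint and the anaphase-promoting complex then drive mitosis. Mature neutrophils are known as cells that have left the cell cycle, and PCNA is known in them as a cytosolic protein with a role in survival.

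Recovered reads per library ranged from 5188116 to 9851961, and 1 read was worth 0.745 to 1.37 normalized counts, the unit of every level below. Levels are normalized counts per gene and are compared between libraries, not between genes, unless given per kilobase of exon. DKK1 library 2 was the shallowest, and it differed from the other DKK1 libraries by 13.6 and 12.5 times counting noise (chi-square per degree of freedom), against 2.99 for those among themselves and 2.19 to 2.26 among controls. The genes of the sort were near 0 with DKK1: Ly6g stood at 1338 ± 72.7 in control and 5.96 ± 1.30 with DKK1, and Cd101 at 5098 ± 178 and 3.53 ± 2.31 (SD, n = 3 each). By limma at an adjusted p under 0.05, 35.1% of all genes tested rose and 36.1% fell. Of 12 neutrophil markers 11 fell, with summed levels of 701905 to 727518 in control and 7169 to 8083 with DKK1. Of 12 monocyte and macrophage markers 4 rose and 7 fell, and their sum was 7393 to 7531 in control and 15296 to 15430 with DKK1, where C1qa had 0 reads. Of 12 markers of myeloid progenitors, which divide in marrow, 3 rose and 4 fell (25% and 33.3%, both below the shares of all genes tested). The sum of these 12 was 5685 to 5866 and 1809 to 2095. Erythroid markers fell in 8 of 10 tested cases (sum 1664 to 1791 and 302 to 1496, with Klf1 at 0 reads with DKK1) and B cell markers in 9 of 11 (sum 1571 to 1714 and 52.2 to 128, with Igll1 at 0 reads with DKK1). T and NK cell markers summed to 68.0 to 101 and 84.2 to 141, 5 of 12 could be tested, and 1 rose and 2 fell. With libraries scaled to equal totals, 4 monocyte and macrophage, 4 erythroid and 5 B cell markers fell, against 29.2% of all genes tested. The part of these other cell types in the results below was not tested. In bulk RNA, fewer cells of a type and less RNA per cell cannot be told apart.

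Replication genes were higher with DKK1 more often than they were lower, and the mitosis genes mostly did not pass the test. Each of the 50 genes passed the filter on low values (a value of 1 or more in 3 or more libraries). Of the 30 replication genes, 14 rose, 6 fell and 10 did not pass (limma on log2(normalized count + 1), Benjamini-Hochberg adjusted p under 0.05). The background over 16265 genes tested was 35.1% higher and 36.1% lower, against 46.7% and 20% of the replication genes. In either direction 71.2% of all genes tested were called. Of the 20 mitosis genes, 5 rose, 3 fell and 12 did not pass, so 60.0% did not pass against 28.8% of all genes tested. The median log2 change was 0.74 for replication, -0.04 for mitosis and -0.03 for all genes tested. A mean below 100 over the 6 libraries was seen in 19 of 20 mitosis genes and in 23 of 30 replication genes. Of all tested genes below that level, 59.5% were called (30% higher and 29.5% lower). DKK1 libraries lay wholly above control for 16 replication and 6 mitosis genes, where 36.5% of all genes tested did so. They lay wholly below for 6 and 5, where the background was 37.4% (73.9% in either direction). With edgeR 14 replication genes rose and 6 fell, and 4 mitosis genes rose and 5 fell, against a background of 33.8% higher, 36.3% lower and 70.1% in all. With DESeq2 the counts were 13 and 6, and 3 and 2, against 31.6%, 34.1% and 65.7%. Without DKK1 library 2 they were 13 and 6, and 4 and 3, against 34.7%, 36.2% and 71%.

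The scale of the libraries bears on these counts. Summed normalized counts were 9706276 to 9775231 in control and 6521100 to 7126726 with DKK1. Scaling all libraries to equal totals moved the median of all genes tested from -0.03 to 0.44 on the log2 scale. Under it 18 replication genes rose and 5 fell, and 7 mitosis genes rose and 1 fell, against a background of 43.6% higher and 29.2% lower (72.8% in all). Changes below are on the authors' scale unless said otherwise. The plots of levels by library and of changes show these 2 groups side by side.

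**Figure D1:**
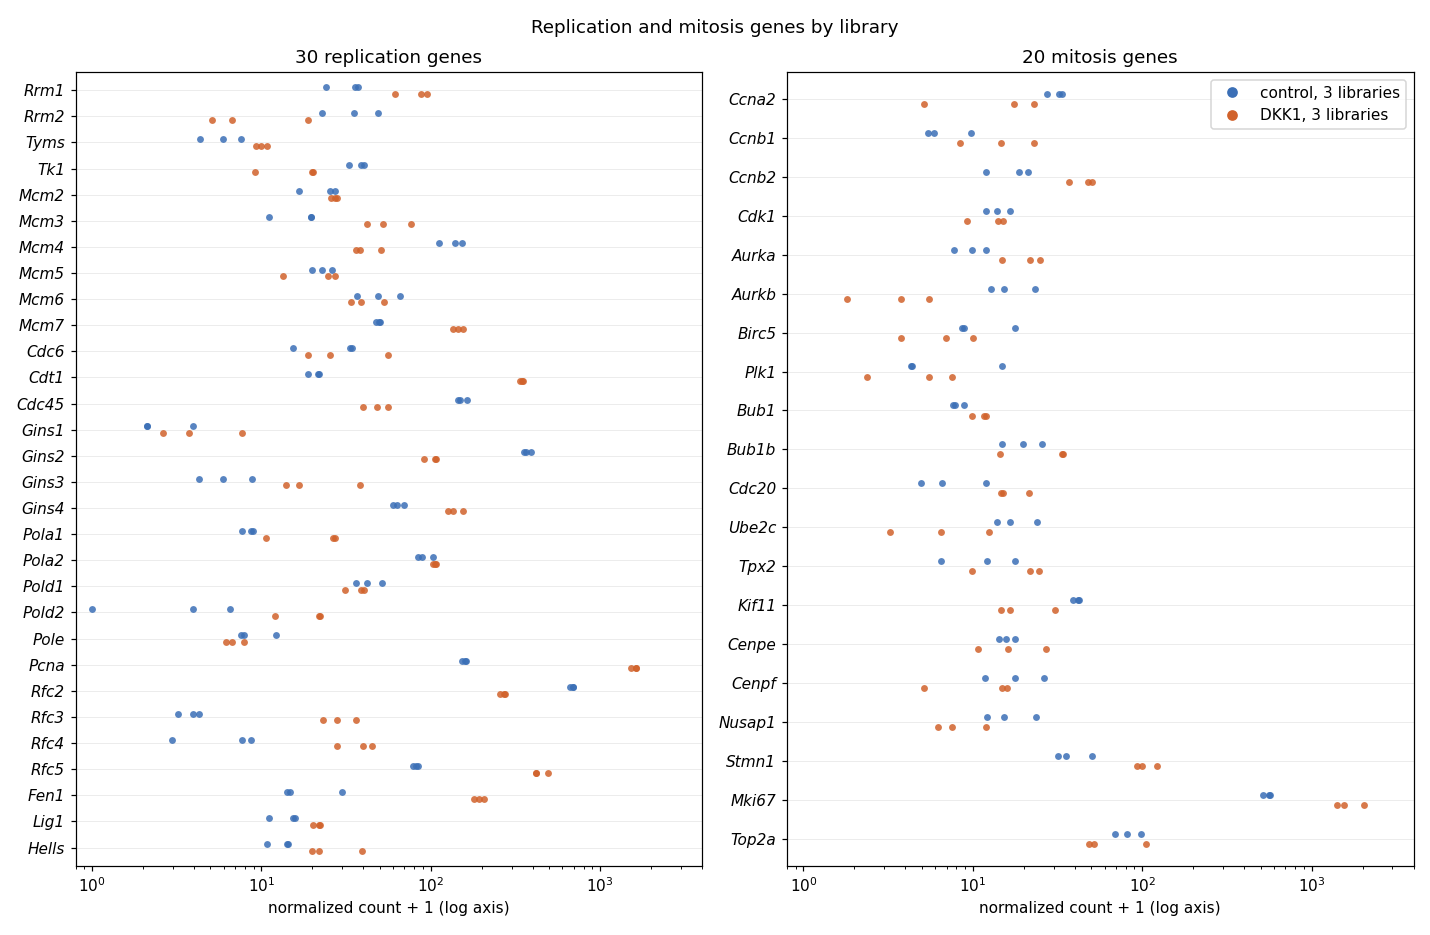
Normalized count + 1 on a log axis for each of 30 replication genes (left) and 20 mitosis genes (right), 1 point per library, blue for 3 control and orange for 3 DKK1 libraries. Cdt1, Pcna, Fen1 and Rfc5 show the widest gaps among abundant genes on the left, and most mitosis genes on the right lie below 50 in both groups.

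**Figure D2:**
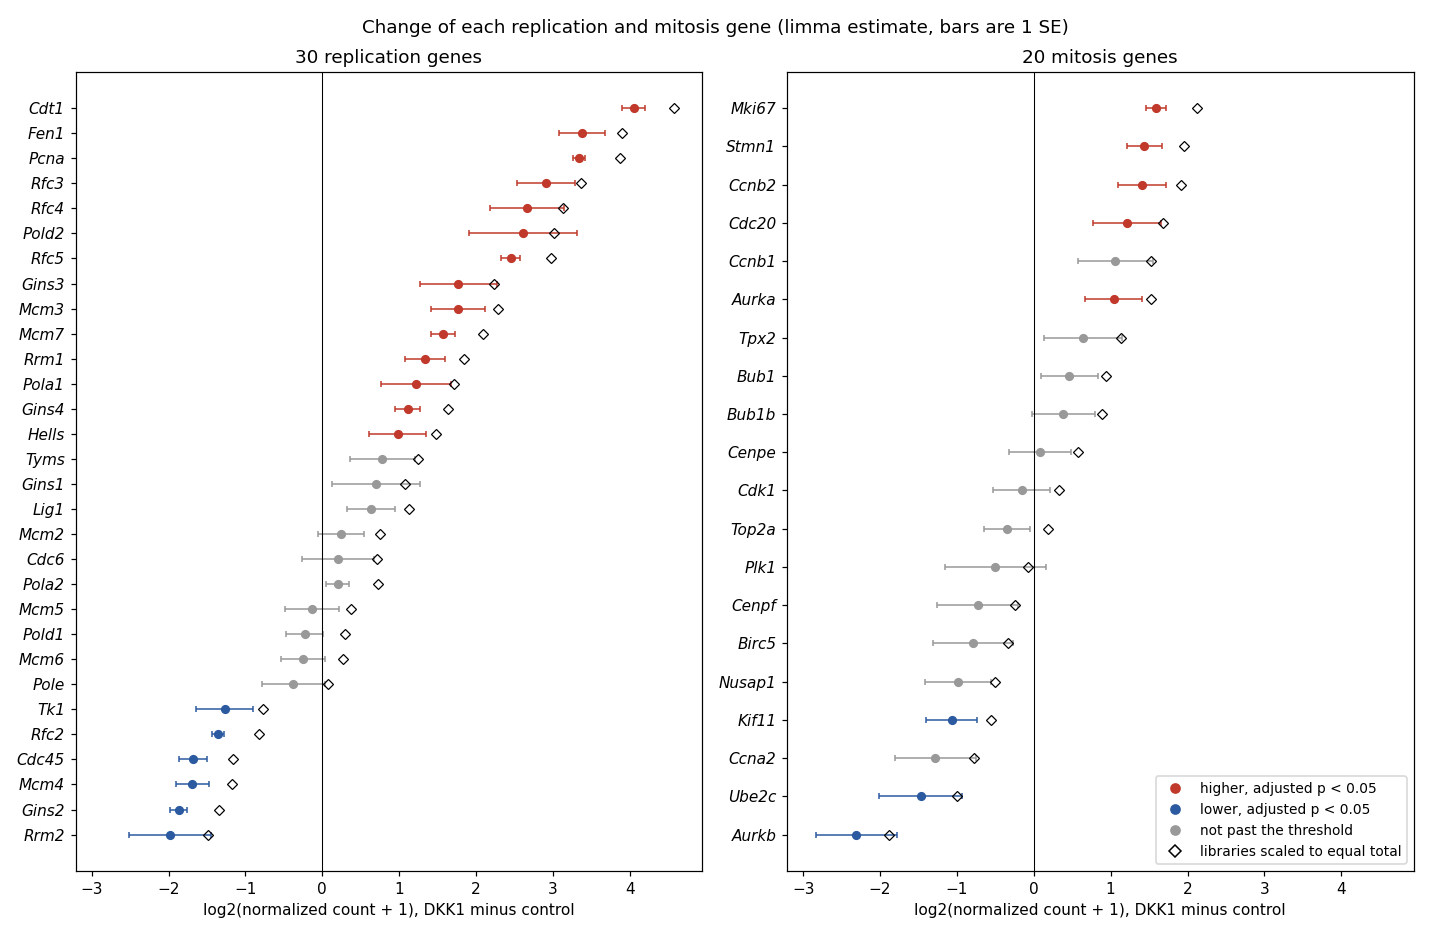
Log2 change, DKK1 minus control, for each gene (filled circles, limma estimate with bars of 1 SE, red higher and blue lower at adjusted p under 0.05, grey not past it) and with libraries scaled to equal totals (open diamonds). Replication genes reach from Rrm2 at -1.98 to Cdt1 at 4.05, and mitosis genes from Aurkb at -2.31 to Mki67 at 1.59.

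The promoters of the 2 groups are known for different sequence elements: E2F sites in genes of DNA replication, and CHR elements with CCAAT boxes in genes of mitosis. RefSeq windows (GRCm38.p6) matched 24 replication and 16 mitosis genes by symbol. The 250 bases before each start were searched on both strands for E2F (TTTCCCGC, TTTCGCGC, TTTGCCGC or TTTGGCGC), CHR (TTTGAA or TTCGAA) and the CCAAT box (CCAAT). Matches that overlap each other were counted separately. E2F matches stood in 27.6% of 29 windows of replication genes, 6.25% of 16 windows of mitosis genes and 1.86% of all 32851 windows. CHR matches stood in 24.1%, 50% and 17.1%, and CCAAT boxes in 48.3%, 87.5% and 33.8%. Of the 8 replication genes with an E2F match, 5 rose (Gins3, Hells, Mcm7, Pola1 and Rfc3), 0 fell and 3 did not pass (Cdc6, Mcm5 and Mcm6). Of all 24 replication genes with a window, 13 rose, 3 fell and 8 did not pass, and Gins2, Mcm4 and Rfc2, which fell, are among those with none. Of the 8 mitosis genes with a CHR match, 3 rose (Ccnb2, Cdc20 and Mki67), 2 fell (Kif11 and Ube2c) and 3 did not pass (Bub1b, Cdk1 and Top2a). Of all 16 mitosis genes with a window, 4 rose, 2 fell and 10 did not pass, and Stmn1 and Aurkb have none. These are letter matches, not binding data. The 7 sequences below were chosen to show genes with and without matches that rose, fell or did not pass. Each is the 250 bases before the start, 5′ to 3′ on the gene's strand, with E2F, CHR and CCAAT matches in capitals.
Cdt1, chr8:122567765-122568014, strand +: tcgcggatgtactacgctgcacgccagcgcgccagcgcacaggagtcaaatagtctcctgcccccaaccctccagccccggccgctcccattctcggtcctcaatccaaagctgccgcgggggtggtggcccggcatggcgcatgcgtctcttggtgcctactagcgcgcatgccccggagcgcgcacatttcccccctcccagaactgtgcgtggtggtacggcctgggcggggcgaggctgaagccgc
Mcm3, chr1:20820313-20820562, strand -: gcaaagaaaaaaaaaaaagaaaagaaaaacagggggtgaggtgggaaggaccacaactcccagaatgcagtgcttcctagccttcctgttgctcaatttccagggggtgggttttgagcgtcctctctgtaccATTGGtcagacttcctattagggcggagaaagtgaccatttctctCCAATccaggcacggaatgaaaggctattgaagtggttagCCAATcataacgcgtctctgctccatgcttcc
Pola1, chrX:93632156-93632405, strand -: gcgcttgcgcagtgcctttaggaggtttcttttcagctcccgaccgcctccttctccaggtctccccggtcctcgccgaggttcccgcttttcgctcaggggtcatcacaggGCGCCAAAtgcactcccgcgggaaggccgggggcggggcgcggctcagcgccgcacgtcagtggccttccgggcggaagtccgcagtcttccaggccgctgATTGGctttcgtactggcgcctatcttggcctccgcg
Mcm2, chr6:88898781-88899030, strand -: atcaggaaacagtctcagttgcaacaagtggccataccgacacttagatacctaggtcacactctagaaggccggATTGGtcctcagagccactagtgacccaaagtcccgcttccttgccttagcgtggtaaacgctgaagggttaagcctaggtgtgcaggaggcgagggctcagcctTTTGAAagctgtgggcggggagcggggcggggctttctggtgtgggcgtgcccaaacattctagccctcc
Mki67, chr7:135716380-135716629, strand -: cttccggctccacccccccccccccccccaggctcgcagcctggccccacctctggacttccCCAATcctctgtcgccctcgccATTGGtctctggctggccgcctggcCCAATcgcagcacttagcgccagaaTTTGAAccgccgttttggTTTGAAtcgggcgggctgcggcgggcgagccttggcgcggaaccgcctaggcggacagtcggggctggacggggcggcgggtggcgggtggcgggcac
Top2a, chr11:99024190-99024439, strand -: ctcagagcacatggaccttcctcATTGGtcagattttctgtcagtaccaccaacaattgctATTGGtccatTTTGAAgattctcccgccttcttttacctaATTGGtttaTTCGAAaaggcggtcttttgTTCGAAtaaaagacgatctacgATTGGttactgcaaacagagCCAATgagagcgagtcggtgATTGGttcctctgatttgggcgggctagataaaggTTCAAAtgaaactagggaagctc
Kif11, chr19:37376132-37376381, strand +: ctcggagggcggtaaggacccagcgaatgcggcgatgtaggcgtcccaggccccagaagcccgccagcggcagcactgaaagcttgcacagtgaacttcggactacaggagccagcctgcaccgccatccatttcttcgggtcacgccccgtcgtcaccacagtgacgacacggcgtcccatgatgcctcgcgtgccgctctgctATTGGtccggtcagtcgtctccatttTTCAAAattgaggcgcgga
Cdt1, which rose the most, has no match in these bases, Mcm3 has CCAAT boxes, and Pola1 has an E2F match and a CCAAT box. Mcm2 did not pass and has a CHR match and a CCAAT box. Mki67 rose and Top2a did not pass, and both have several CHR matches and CCAAT boxes. Kif11, which fell, has 1 CHR match and 1 CCAAT box.

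Among replication genes the clamp and its loader moved the most as a group: 4 of 5 rose and 1 fell. That is 80% higher and 20% lower, against 35.1% and 36.1% of all genes tested. Pcna, the sliding clamp that holds polymerases on DNA, stood at 160.3, 158 and 153 in control and at 1528, 1639 and 1635 with DKK1. The DKK1 libraries all lay about 10.2-fold above control (157 ± 3.85 and 1601 ± 63.1, log2 change 3.34, SE 0.08, limma adjusted p = 7.99e-10). Pcna lies on chromosome 2 from 132249162 to 132253314, minus strand (GENCODE M21, GRCm38). Its near-identical copies Pcna-ps1 and Pcna-ps2 held 0 and 0.701 normalized counts in control and 0 and 7.30 with DKK1. Rfc5, a small loader subunit, stood at 78.0, 82.7 and 80.8 in control and at 419.6, 493 and 419 with DKK1 (5.52-fold, adjusted p = 8.11e-08). Rfc3 rose from 2.83 ± 0.542 to 28.0 ± 6.59 and Rfc4 from 5.45 ± 3.06 to 36.6 ± 8.72, with 8 and 15 control reads in all. Rfc2, of the same complex, went the other way, from 693, 667 and 689.6 to 274, 254 and 271 (2.56-fold lower, log2 change -1.36, SE 0.08, adjusted p = 3.52e-07). Per kilobase of exon, Rfc2 was the most abundant of these 4 loader genes in control (108, against 17.2 for Rfc5). With DKK1, Rfc5 (95.1) lay above Rfc2 (42.3), and Rfc4 and Rfc3 stayed lowest. Of the exon bases of Rfc5, 10.7% overlap Wsb2 on the other strand, which went from 353 to 3086. Of those of Rfc2, 15.1% overlap Lat2, which went from 70.3 to 225, and of those of Rfc4, 12.7% overlap Eif4a2, which went from 3782 to 1859. The sources used here do not say whether counting used strand, so reads in such overlaps cannot be assigned to either gene.

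Origin loading and helicase activation genes held calls in both directions, with 3 higher, 2 lower and 2 not past the threshold of 7. That is 42.9% higher and 28.6% lower, against 35.1% and 36.1% of all genes tested. Cdt1, the licensing factor that brings MCM to origins, had control levels of 20.9, 17.9 and 20.7 and DKK1 levels of 344, 337 and 351. This was the largest change of the 50 genes, 17.4-fold (log2 change 4.05, SE 0.15, adjusted p = 1.79e-08), and it rests on 56 control and 1136 DKK1 reads. Cdt1 lies on chromosome 8 from 122568015 to 122573554, plus strand. Cdc6, its partner in loading, stood at 14.3, 32.4 and 33.5 in control and 24.6, 17.9 and 54.7 with DKK1, so the groups overlapped (adjusted p = 0.718). Cdc45, the helicase cofactor, fell from 164, 144 and 148 to 38.8, 54.9 and 47.4 (3.23-fold, adjusted p = 2.36e-05). The 4 GINS subunits work as a single complex. Gins4 and Gins3 rose, Gins1 did not pass, and the fall of Gins2 rests on reads that Gse1 may share. Gins2 fell 3.68-fold, from 357, 364 and 389 to 105, 90.7 and 106 (adjusted p = 4.96e-07). Gins4 rose 2.18-fold from 63.3 ± 4.53 to 138 ± 14.7 (adjusted p = 0.000164), and Gins3 rose from 5.35 ± 2.29 to 21.9 ± 13.2 (adjusted p = 0.0105). Gins1 stayed at or below 6.71 in each library and did not pass. Gse1, on the strand opposite to Gins2, covers 67.3% of the exon bases of Gins2 and went from 1377 to 406, so the fall of Gins2 cannot be told apart from that of Gse1.

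Of the 6 MCM subunits, which form a single ring with equal parts of each, 2 rose, 1 fell and 3 did not pass. That is 33.3% higher and 16.7% lower, against 35.1% and 36.1% of all genes tested. Mcm7 rose from 48.3, 49.2 and 46.3 to 134, 154 and 145 (3.01-fold, log2 change 1.57, SE 0.15, adjusted p = 1.25e-05). On the other strand, Ap4m1 overlaps 7.25% of its exon bases and went from 43.3 to 112. Cops6 overlaps 1.45% of them and went from 81.1 to 255. Mcm3 rose from 18.7, 10.1 and 18.7 to 51.4, 41.2 and 75.9 (3.55-fold, adjusted p = 0.00137). Mcm4 fell from 138, 111 and 152 to 49.9, 37.1 and 35.1 (3.28-fold, adjusted p = 6.46e-05), and its groups did not overlap either. Mcm2, Mcm5 and Mcm6 had overlapping groups, with means of 22.2, 22.0 and 49.4 in control and 25.9, 20.8 and 41.1 with DKK1. Their adjusted p-values were 0.483, 0.75 and 0.466. With equal totals Mcm2 passed as higher (log2 change 0.75, adjusted p = 0.0471). Summed over the 6 subunits the level was 261 to 322 in control and 302 to 361 with DKK1, so the sums overlapped on the authors' scale. As a share of the library's summed normalized count they were 26.9 to 32.9 ppm and 42.4 to 54.9 ppm, with no overlap. Library totals were lower with DKK1, so such a share can rise where normalized counts do not change. With equal totals the median log2 change was 0.56 for the MCM genes and 0.44 for all genes tested.

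Nucleotide supply genes showed opposite changes in the 2 subunits of ribonucleotide reductase, the enzyme that makes DNA building blocks. Rrm1, the large subunit, rose from 23.1, 34.6 and 36.5 to 93.9, 60.4 and 86.5 (2.56-fold, adjusted p = 0.00153). Rrm2, the small subunit that cycling cells make in S phase, fell from 22.0, 48.0 and 34.5 to 17.9, 4.12 and 5.72 (3.77-fold, adjusted p = 0.00827). Thymidine kinase (Tk1), another S phase enzyme, fell from 36.4 ± 4.02 to 15.4 ± 6.24 (adjusted p = 0.0118), and with equal totals it no longer passed (adjusted p = 0.0845). Thymidylate synthase (Tyms) was near the limit of detection at 3.35 to 6.59 in control and 8.24 to 9.80 with DKK1. It did not pass (adjusted p = 0.122), but did so with equal totals (adjusted p = 0.0241).

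Lagging strand and polymerase genes rose or did not pass, and 0 of these 8 genes, Hells included, fell at an adjusted p under 0.05 by limma, edgeR or DESeq2. The 8 genes join 5 polymerase genes with 3 flap, ligase and remodeller genes, the replication roles with 0 genes lower. Because the roles were joined on that outcome, the 0 follows from the choice of genes. Of all genes tested, 36.1%, 36.3% and 34.1% fell by limma, edgeR and DESeq2. The 0 cannot be weighed against these shares, and no conclusion is drawn from it. At an unadjusted p under 0.05, for which the share of all genes was not counted, limma also placed 0 of the 8 lower. Fen1, the nuclease that trims flaps between fragments, stood at 13.2, 29.0 and 13.8 in control and 179.6, 205 and 191 with DKK1 (10.3-fold, log2 change 3.38, SE 0.30, adjusted p = 6.06e-06). Gm10143, on the opposite strand, covers 78.8% of its exon bases and went from 9.67 to 87.8, so reads of these 2 genes cannot be told apart. Lig1, the ligase that seals fragments, stood at 13.04 ± 2.59 and 20.4 ± 1.06 with no overlap of the groups and an adjusted p of 0.103, or 0.0107 with equal totals. Zswim9, on the opposite strand, overlaps 5.79% of the exon bases of Lig1 and went from 3.57 to 51.3. Pold2, a delta subunit, rose from 5.49, 0 and 2.96 to 20.9, 10.99 and 21.2, on 8 control reads (adjusted p = 0.00811, or 0.0583 with a pseudocount of 0.1). Pola1, the catalytic subunit of polymerase alpha, rose from 7.42 ± 0.632 to 20.3 ± 9.29 (adjusted p = 0.0337). Without DKK1 library 1 or 3 the adjusted p of Pola1 was 0.113, and without control libraries 1, 2 and 3 it was 0.0689, 0.0832 and 0.0679. The catalytic subunits Pold1 (42.2 ± 7.59 and 35.8 ± 4.87) and Pole (8.22 ± 2.56 and 5.93 ± 0.847) did not pass. Pola2 stood at 90.8 ± 9.78 and 104 ± 2.48 (adjusted p = 0.249), and passed as higher with equal totals (adjusted p = 0.00248). Hells, a chromatin remodeller of replicating cells, rose from 12.1 ± 1.99 to 26.0 ± 10.8 (adjusted p = 0.0372). Its call was lost without DKK1 library 2 (adjusted p = 0.121), without control libraries 1, 2 or 3 (0.0621, 0.0593 and 0.104) and with DESeq2 (0.0741).

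Among mitosis genes, Mki67 stood far above the others in both groups. Mki67, which encodes the chromosome coat protein Ki-67, read 561, 517 and 566 in control and 1419, 2036 and 1551 with DKK1. Every DKK1 library exceeded every control, and DKK1 library 2 was the highest (3.04-fold, log2 change 1.59, SE 0.13, adjusted p = 2.91e-06). Mki67 lies on chromosome 7 from 135689784 to 135716361, minus strand. Per kilobase of exon it stood at 54.5 in control and 166 with DKK1. Top2a, the topoisomerase that untangles chromosomes and a usual companion of Ki-67, stood at 9.07 and 7.51 on that scale. Its levels were 80.2, 97.2 and 68.0 in control and 47.7, 50.8 and 105 with DKK1, and it did not pass (adjusted p = 0.330). DKK1 library 3 alone lay above the controls, and without it Top2a passed as lower (log2 change -0.71, adjusted p = 0.0236).

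The weight of Pcna and Mki67 shows in the summed levels of the 2 groups. The 30 replication genes summed to 2159, 2145 and 2180.3 in control and 3826, 3962 and 3996 with DKK1. Without Pcna the sums were 1999, 1987 and 2028 against 2298, 2323 and 2361. The 20 mitosis genes summed to 924, 908 and 946 and to 1794, 2416 and 2056. Without Mki67 the mitosis sums were 362, 391 and 380.3 against 375, 380.5 and 505, so the groups overlapped on the authors' scale. As a share of each library's summed normalized count, the mitosis genes without Mki67 stood at 37.1, 40.3 and 39.2 ppm in control and 57.5, 53.4 and 76.9 ppm with DKK1, with no overlap. Library totals were lower with DKK1, so such a share can rise where normalized counts do not change. With equal totals the median log2 change was 0.33 for mitosis genes without Mki67 and 0.44 for all genes tested.

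**Figure D3:**
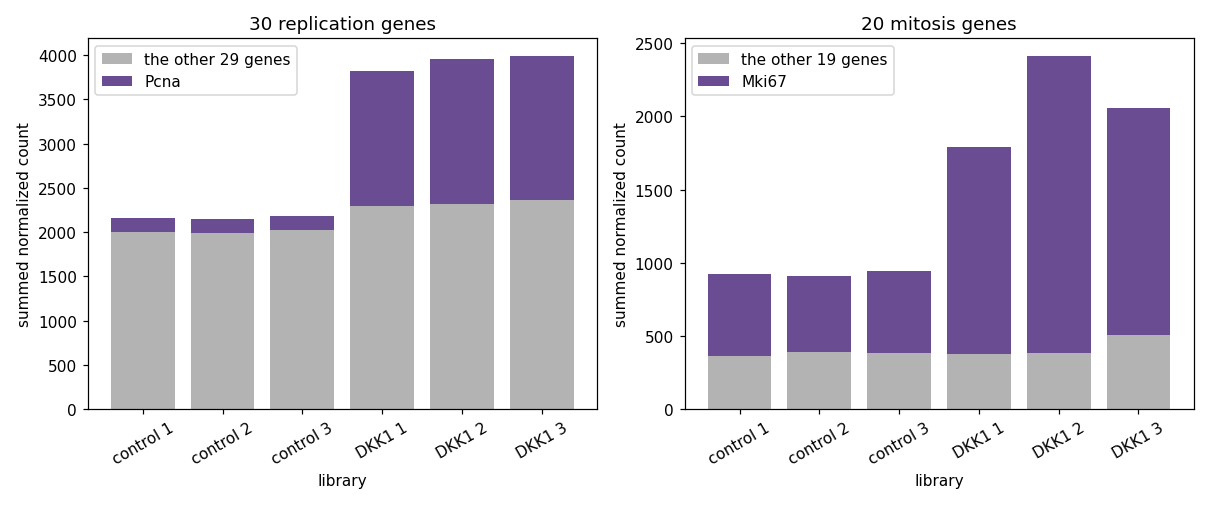
Summed normalized count in each of 6 libraries for 30 replication genes (left, Pcna in purple) and 20 mitosis genes (right, Mki67 in purple), with the remaining genes in grey. The grey part of the mitosis bars lies between 362 and 505 in all 6 libraries, and the purple parts are larger in each DKK1 library than in any control.

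Of the 4 genes of the cyclins and their kinase, 1 rose and 3 did not pass. That is 25% higher and 0% lower, against 35.1% and 36.1% of all genes tested. Ccnb2 (cyclin B2) rose from 10.98, 20.1 and 17.7 to 35.8, 49.5 and 46.5 (2.70-fold, adjusted p = 0.00287). Ccnb1 (cyclin B1) stood at 6.06 ± 2.37 and 14.4 ± 7.32 and did not pass (adjusted p = 0.0794), though it passed as higher without DKK1 library 1 (0.0290) and with equal totals (0.0189). Cdk1, the kinase that both activate, stood at 10.98, 15.6 and 12.8 in control and 14.2, 8.24 and 13.1 with DKK1, with overlapping groups (adjusted p = 0.714). Ccna2 (cyclin A2), which acts in S phase and G2, stood at 26.4, 31.3 and 32.5 in control and at 16.4, 4.12 and 22.0 with DKK1. Its DKK1 libraries lay wholly below control at an adjusted p of 0.0557. It was called lower under 7 of 17 alternatives, among them edgeR (adjusted p = 0.0488) and without DKK1 library 3 (0.0235), and 12.5% of its exon bases overlap Exosc9, which went from 17.2 to 157.6.

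The mitotic kinases and the proteins that work with them gave opposite signs for the 2 Aurora kinases. Aurkb, the kinase of the chromosomal passenger complex, fell from 14.3, 22.3 and 11.8 to 4.47, 2.75 and 0.817, on 45 and 9 reads (6.03-fold, log2 change -2.31, SE 0.53, adjusted p = 0.00341). Birc5 (survivin), of the same complex, stood at 10.8 ± 5.19 and 5.90 ± 3.12 and did not pass (adjusted p = 0.199). Aurka, the kinase of the spindle poles, rose from 8.85 ± 2.14 to 19.4 ± 5.09 (adjusted p = 0.0308). That call was lost without DKK1 libraries 1 or 2 (adjusted p = 0.0938 and 0.0664) and without control libraries 2 or 3 (0.0852 and 0.0618). DESeq2 did not call Aurka either (adjusted p = 0.0891). Its activator gene Tpx2 stood at 11.1 ± 5.63 and 17.7 ± 7.77 (adjusted p = 0.287). Plk1, Polo-like kinase 1, read 1.37 to 13.8 over the 6 libraries and did not pass.

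Checkpoint and anaphase-promoting genes held calls in both directions on few reads. Of these 4 genes 25% rose and 25% fell, against 35.1% and 36.1% of all genes tested. Cdc20, the activator of the anaphase-promoting complex, rose from 6.84 ± 3.68 to 16.1 ± 3.74 (adjusted p = 0.0349). Its adjusted p was 0.0528 by edgeR and 0.0979 by DESeq2. Without DKK1 libraries 1 and 3 it was 0.0587 and 0.109, and without control libraries 2 and 3 it was 0.0857 and 0.108. Ube2c, the ubiquitin-conjugating enzyme of that complex, fell from 23.1, 15.6 and 12.8 to 2.24, 5.49 and 11.4 (adjusted p = 0.0347). Its call was lost without DKK1 library 1 or 2 (0.0977 and 0.0545), without control libraries 1, 2 or 3 (0.122, 0.0767 and 0.0547), with DESeq2 (0.0516), with equal totals (0.130), with a pseudocount of 0.1 (0.0578) and with limma without trend and robust fitting (0.0525). The checkpoint kinase genes Bub1 (7.10 ± 0.641 and 10.2 ± 1.09) and Bub1b (19.0 ± 5.40 and 26.3 ± 11.2) did not pass. Bub1 passed as higher with equal totals (adjusted p = 0.0441).

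Spindle genes gave 1 rise, 1 fall and 4 that did not pass. That is 16.7% higher and 16.7% lower, against 35.1% and 36.1% of all genes tested. Stmn1 (stathmin), which destabilises microtubules, rose from 30.7, 34.6 and 49.3 to 121, 98.9 and 92.3 (2.73-fold, adjusted p = 0.000365). Kif11, the motor that separates spindle poles, fell from 40.6, 38.0 and 41.4 to 15.7, 13.7 and 29.4 (2.04-fold, adjusted p = 0.0154). With equal totals Kif11 no longer passed (adjusted p = 0.170). The kinetochore genes Cenpe (14.9 ± 1.79 and 17.0 ± 8.38) and Cenpf (17.6 ± 7.25 and 10.97 ± 5.95) had overlapping groups. Nusap1, a spindle-binding protein gene, stood at 16.0 ± 5.94 and 7.58 ± 3.03 with DKK1 wholly below control. Its adjusted p was 0.0662, and it passed as lower by edgeR (0.0499), with a pseudocount of 10 (0.0470) and without DKK1 library 2 (0.0310).

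Other genes of the same pathways, outside the 50, were counted in the same way, against the same background of 35.1% higher and 36.1% lower. Of 40 tested genes of replication, 20 rose and 7 fell (median log2 change 0.90), and of 73 tested genes of mitosis 11 rose, 13 fell and 49 did not pass (median 0.10). Of these 73 mitosis genes, 60 had a mean below 100 over the 6 libraries and 30 a mean below 10 in both groups. With equal totals the mitosis count was 19 higher and 11 lower, against a background of 43.6% higher and 29.2% lower. Chtf8, of an alternative clamp loader, rose from 405 ± 21.7 to 1009 ± 28.8, and Pole4, a small polymerase epsilon subunit, from 10.1 ± 4.98 to 317 ± 12.0. Mcmbp, an MCM-binding protein gene, fell from 668 ± 41.8 to 161 ± 16.3, and Pold4, a small delta subunit, from 192 ± 26.8 to 10.5 ± 2.65. Among the mitosis genes, Kif23, a motor of the central spindle, fell from 1886 ± 19.6 to 12.6 ± 2.36, and Arhgap11a fell from 614 ± 41.9 to 134 ± 20.9. The 2 named for their rise were Incenp, the scaffold of the passenger complex, from 100.03 ± 15.4 to 1378 ± 70.5, and the condensin gene Ncapg2, from 101 ± 16.2 to 1417 ± 78.4. Incenp thus rose in the complex whose kinase gene Aurkb fell.

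Nucleotide and chromatin genes linked to replication were counted next, against the background of 35.1% higher and 36.1% lower. Of 21 tested nucleotide genes 12 rose and 6 fell (57.1% and 28.6%, median 0.78). Shmt1, which feeds folate carbon, rose from 61.0 ± 3.25 to 326 ± 25.2. Dck, the salvage enzyme deoxycytidine kinase, fell from 5779 ± 174 to 88.7 ± 16.5. Samhd1, which breaks down deoxynucleotides in non-dividing myeloid cells, fell from 14972 ± 149.6 to 278 ± 56.2. Of 14 replication-coupled chromatin genes 9 rose and 2 fell (64.3% and 14.3%, median 1.21). Supt16, a subunit of the histone chaperone FACT, rose from 433 ± 33.2 to 1398 ± 26.4, and Hat1, a histone acetyltransferase, from 18.3 ± 5.61 to 202 ± 15.7. The 2 that fell were Hmgb2, a DNA-bending protein gene, from 7121 ± 139 to 111 ± 13.7, and Lmnb1, lamin B1, from 9091 ± 75.4 to 213 ± 94.2.

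Of 24 regulators of the E2F, RB and DREAM system, which turns these genes on and off, 8 rose, 10 fell and 6 did not pass (median -0.18). These shares, 33.3% higher and 41.7% lower, lay near the 35.1% and 36.1% of all genes tested. With equal totals 11 rose and 8 fell, against a background of 43.6% higher and 29.2% lower. E2f2, an activating E2F, fell from 1702 ± 48.9 to 19.0 ± 7.60, and Rbl2, the pocket protein of the repressive DREAM complex, from 926 ± 70.0 to 58.6 ± 3.33. Lin52, a DREAM core subunit, rose from 38.7 ± 7.76 to 164 ± 3.46, and Rbbp4, a histone-binding subunit, from 698 ± 25.1 to 1607 ± 174. An activator and a repressor of the same targets were thus both lower.

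PCNA, FEN1, LIG1 and the delta polymerase also serve DNA repair, so repair genes were counted too. Of 30 repair genes not tied to S phase, 15 rose, 3 fell and 12 did not pass (median 0.76). That is 50% higher and 10% lower, against 35.1% and 36.1% of all genes tested. Ddb1, a damage sensor subunit, rose from 428 ± 25.7 to 1912 ± 193, and Xrcc1, the scaffold of single-strand break repair, from 34.1 ± 7.60 to 363 ± 17.7. Xpc, a lesion sensor, fell from 745 ± 5.59 to 257 ± 37.5 and Xpa from 84.5 ± 5.18 to 19.9 ± 9.24. Of 15 genes of the anaphase-promoting complex and its partners, 12 rose and 2 fell (80% and 13.3%, median 0.82), against the same background. Fzr1, an activator of the complex, rose from 182 ± 13.8 to 376 ± 18.3 and the subunit gene Anapc7 from 124 ± 20.02 to 355 ± 36.8. The 2 that fell were Anapc2, from 516 ± 30.3 to 283 ± 24.7, and Anapc5, from 280.1 ± 9.99 to 74.8 ± 24.4. The plot of calls by list sets these shares beside that of all genes.

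**Figure D4:**
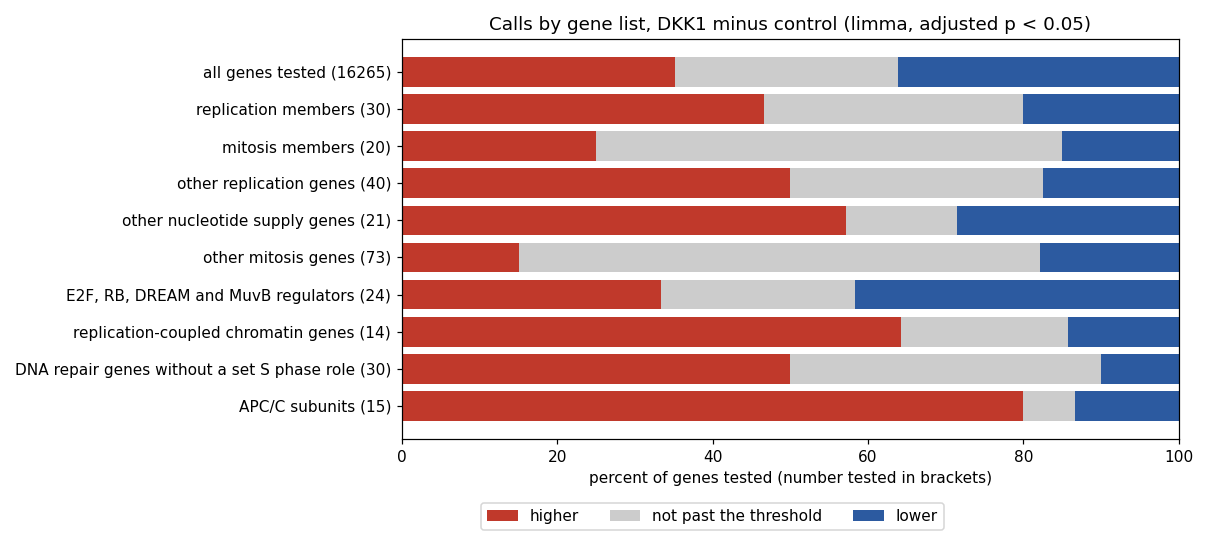
Percent of tested genes called higher (red), lower (blue) or not past the threshold (grey) in each list, with the number tested in brackets, by limma at adjusted p under 0.05. All 16265 tested genes stand at the top with 35.1% higher and 36.1% lower, the grey part is widest in the mitosis lists, and the lists were not tested against each other.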

How the data were processed

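The table the authors deposited gives a normalized count for each gene in each library, a signal that is never negative. The build was mm10, per the submitters' processing notes. The sources used here name no aligner, counting tool or annotation. Another 3 columns of values match no sample and were not used. Each value was a whole multiple of 1 read's worth in its library (100% within 0.001 reads), so reads were recovered. Groups came from sample titles. Differences were tested with limma 3.58.1 (R 4.3.3, with trended, robust variances) on log2(normalized count + 1), which understates changes of low genes, over 16265 genes at 1 or more in 3 or more of 6 libraries, with two-sided Benjamini-Hochberg adjusted p under 0.05, and was tested on simulated data. Folds are ratios of group means. edgeR 4.0.16 and DESeq2 1.42.0 ran on recovered reads as alternatives. Genes with a mean of at least 10 in a group were named, and from other lists the 2 of smallest adjusted p in each direction, of which 1 is not reported here. Members and lists were chosen with earlier results of these data known. Exon lengths, overlaps and positions are from GENCODE M21 (GRCm38), matched without version for all 50 genes. Promoters came from RefSeq.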

Additional observations from a re-analysis of the deposited data

How the results depend on the processing

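The replication counts were steady: over the 17 alternatives 12 to 18 genes were higher and 5 or 6 lower. The mitosis counts, which rest on few reads, were less so. Mitosis genes called higher numbered 3 with DESeq2, 3 with the replicate block and 3 to 5 without single libraries, and those called lower 5 with edgeR, 5 with a pseudocount of 10, 1 with equal totals and 2 to 5 without single libraries. The median log2 change of replication genes was 0.91 with DESeq2, 0.90 with edgeR, 1.18 with equal totals, 0.93 and 0.38 with pseudocounts of 0.1 and 10, 0.91 with quantile scaling and 0.56 to 0.87 without single libraries. That of mitosis genes was 0.45 with equal totals and -0.26 to 0.13 without single libraries. The result "all genes called" counts genes past the threshold over the whole table, which numbered 10892 to 11546 without single libraries, 11447 with the replicate block and 9742 with a filter of 10, against 11582. Deviations of same-numbered libraries of the groups had correlations near 0 (-0.005, 0.007 and 0.017). Control library 1 correlated best with another number, and control libraries 2 and 3 with their own. Values this small give no sign that the titles' numbers pair the libraries, and they cannot exclude it. With the block, adjusted p-values (limma) were 0.051 for Aurka, 0.0581 for Cdc20, 0.0529 for Ube2c and 0.0451 for Ccna2. The signs of genes that did not pass turned with equal totals for Mcm5 (0.37), Mcm6 (0.27), Pold1 (0.29), Pole (0.08), Cdk1 (0.33) and Top2a (0.18). Without single libraries, the signs of some that did not pass also turned, with ranges of -0.33 to 0.19 for Mcm5 and -0.30 to 0.06 for Cdk1 (both turned without DKK1 library 2). The ranges were -0.24 to 0.54 for Cdc6 and -0.27 to 0.40 for Cenpe (turned without DKK1 library 3, at -0.24 and -0.27, and control library 1, at -0.18 and -0.00), and -0.85 to 0.09 for Plk1 (turned without control library 3). The filter of 10 left 42 of the 50 genes to test. No gene that passed turned sign under any of these alternatives. The causes were not tested.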
